A study of Mus musculus with 4 samples.

Results

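The genes described here encode the enzymes that attach ubiquitin to proteins and remove it again, as they were measured in group 3 innate lymphoid cells (ILC3s) of the mouse large intestine. They were matched by gene symbol, from the families of activating enzymes (Uba), conjugating enzymes (Ube2), ligases and their adaptors (Trim, Rnf, Ube3, Fbx, Klhl, Asb and others) and deubiquitinases (Usp, Otud). The pattern matched 49 of the 2179 genes in the authors' deposited table, and these 49 are the members with values below. It also matched 30 of 1999 gene names in the part of the paper's supplement sheet used here, of which 25 are not in the deposited table, so that 74 genes were found in all. That sheet holds FPKM values of single libraries, and none of its values were used here.

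The cells were purified from lamina propria lymphocytes by flow cytometry as Lin-GFP+, from *Rag1-/-* mice with a GFP reporter of ILC3s on the C57BL/6 background, aged 6 to 10 weeks according to the methods of the study. Mice of both groups lacked *Rag1*, and with it mature T and B cells, and carried 1 copy of the GFP reporter allele. One group received 1 µg of α-DR3 (clone 4C12), an agonistic antibody against the TL1A receptor DR3, and the other received PBS, and the sort took place on day 3. Each group had 2 libraries, each from the pooled cells of 3 to 6 mice, and the question was how α-DR3 treatment altered the transcriptome of ILC3s.

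The deposited table gives 1 mean per group and gene, in FPKM (fragment counts scaled by transcript length and by sequencing depth), with no column for a single library. The spread between replicates and the depth of each library are therefore not given here. Differences are given as the ratio of the group means without an error or a test, and "higher" and "lower" describe the means alone. According to the methods, a gene is listed where the authors' own comparison gave a p under 0.05 and a mean over 1 FPKM was found in either group. The listing thus used the same contrast, and that a member is listed is not treated as a finding here. In sorted bulk RNA, fewer cells of a type and less RNA per cell cannot be told apart.

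Ubiquitin is passed along a relay of 3 kinds of enzyme. An E1 enzyme activates it, an E2 enzyme carries it, and an E3 ligase brings the charged E2 to a chosen protein, and related proteins such as NEDD8 and ISG15 travel along relays of their own. Some ligases are single proteins with a RING or HECT domain. Others are assemblies on a cullin scaffold, in which an F-box, Kelch-BTB or SOCS-box protein selects the substrate. Deubiquitinases cut the tag off again. In lymphocytes such enzymes are known for controlling NF-κB signaling downstream of TNF receptor family members, to which DR3 belongs, as well as antigen receptor signaling and the cell cycle.

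Of the 49 members, 29 had a higher mean in α-DR3 and 20 a lower one, so 59.2% were higher, against 54.6% of all 2179 listed genes, of which 45.4% were lower. At least a 1.5-fold difference of means with a mean over 5 FPKM in either group was met by 29 members, 59.2% of them, against 52.4% of all listed genes. Among genes with a mean over 5 FPKM the shares were 70.7% of 41 members and 69.7% of 1638 listed genes, which lay close together. With a limit of more than 1.5-fold, as the study's methods word it, 28 members were counted, 15 higher and 13 lower, as 1 member had a ratio of exactly 1.5. The limits on p and FDR that the methods add were not applied here. Of the 29, 16 were higher (32.7% of members, against 23.7% of all listed genes) and 13 lower (26.5%, against 28.7%). The share of lower members was close to that of the whole table and the share of higher members above it. Among genes over 5 FPKM, 39.0% of members and 31.6% of listed genes were past the limits as higher, and 31.7% and 38.2% as lower. These differences were not tested. The median log2 ratio of α-DR3 over PBS was 0.44 for the members and 0.39 for all listed genes. After the ratios were divided by the median ratio of all listed genes, a shift of 0.39 on the log2 scale, 7 members were past the limits as higher and 17 as lower. This moved the share of higher genes among those past the limits from 55.2% to 29.2% for the members, and from 45.3% to 23.7% for all listed genes. No member changed direction, as the smallest log2 ratio of a higher member was 0.389 and the shift was 0.385. As the listed genes were selected for a difference, their median need not mark the genes that stayed level.

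By class, the share of higher genes was compared with the 54.6% of all listed genes. Of 3 E1 enzymes 2 were higher, of 9 E2 enzymes 7, of 6 deubiquitinases 4, of 14 single-protein ligases 7 and of 16 substrate adaptors 8. The median log2 ratio was 0.41 for E1 enzymes, 0.46 for E2 enzymes and 0.82 for deubiquitinases, and it was -0.05 for single-protein ligases and -0.01 for substrate adaptors, against 0.39 for all listed genes. For ligases and adaptors the share of 50% higher lay close to that of the whole table, but their medians lay below its median. For E1 and E2 enzymes the medians lay close to that of the whole table, but 77.8% of E2 enzymes were higher. Differences between classes were not tested. With ratios divided by the median ratio, the members past the limits as higher and as lower were 0 and 2 for E2 enzymes (3 and 2 before), 3 and 6 for single-protein ligases (5 and 6 before) and 0 and 6 for substrate adaptors (3 and 4 before). Classes were set by symbol, so that *Trim14*, a Trim protein without a RING domain, was counted among the single-protein ligases. Without it that class held 7 higher and 6 lower genes, and its median turned from -0.05 to 0.52. The symbol pattern also matched *Usp6nl*, whose product is a GTPase-activating protein for Rab proteins and not a protease. Its mean was 3.19 FPKM in PBS and 4.71 FPKM in α-DR3, and it was kept apart from the classes.

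**Figure D1:**
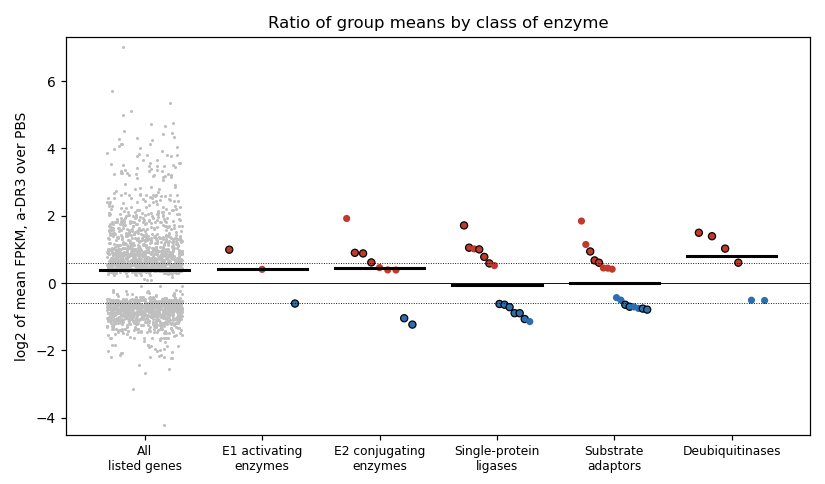
The log2 ratio of the group means, α-DR3 over PBS, is plotted for all listed genes (grey, only genes with both means above 0) and for the members of each class (red, higher in α-DR3, and blue, lower). Bars mark medians, dotted lines a 1.5-fold difference, and black outlines the members past 1.5-fold with a mean over 5 FPKM. Single-protein ligases and substrate adaptors lay on both sides of 0 in equal number (*Trim14* counted). Above 0 were 7 of 9 E2 enzymes, against 54.6% of all listed genes. With ratios divided by the median ratio, 0 E2 enzymes were past the limits as higher and 2 as lower.

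Among the E1 enzymes, *Uba1*, the main activating enzyme of ubiquitin, had the highest level of all 49 members, with a mean of 73.7 FPKM in PBS and 97.8 FPKM in α-DR3. Its ratio of 1.33 was below the 1.5-fold limit. *Uba6*, an alternative E1 that charges both ubiquitin and FAT10, differed in the other direction from *Uba1*, with 5.595 FPKM in PBS and 3.68 FPKM in α-DR3, a 1.52-fold lower mean. After division by the median ratio of all listed genes, the log2 ratio of *Uba1* was 0.024. That median was taken over genes selected for a difference and need not mark a shift shared by the whole table.

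*Ube2z*, the E2 that accepts ubiquitin from Uba6, had 3.70 FPKM in PBS and 5.10 FPKM in α-DR3, with a log2 ratio of 0.076 after the same division. The other higher E2 enzymes covered a wide range of levels. *Ube2e2* had the largest ratio of any member, 3.78, but from a mean of 0.665 FPKM in PBS to 2.52 FPKM in α-DR3, below the 5 FPKM limit. The authors' mean over all libraries was 2.36 CPM (counts scaled to library size), the lowest among the members. *Ube2e3*, a close relative, was more abundant and less different, with 16.8 FPKM in PBS and 22.1 FPKM in α-DR3.

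Among E2 enzymes of other ubiquitin-like proteins, a pair was past the limits as higher, though not after division by the median ratio, as was also the case for *Ube2d1*. *Ube2m*, the E2 of NEDD8, through which cullin ligases are switched on, had 3.61 FPKM in PBS and 6.74 FPKM in α-DR3, a ratio of 1.87. *Ube2l6*, the E2 of the interferon-induced modifier ISG15, had 3.74 and 6.89 FPKM, a ratio of 1.84. *Ube2d1*, a broadly acting E2 that works with many RING ligases, had 13.3 and 20.4 FPKM, a ratio of 1.53. *Ube2j2*, an E2 anchored in the membrane of the endoplasmic reticulum, had 40.6 and 53.2 FPKM, a ratio of 1.31.

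Both lower E2 enzymes were past the limits of size. *Ube2c* (ENSMUSG00000001403.7; chr2:164769898-164778822 of GRCm38 in GENCODE M21), which serves the anaphase-promoting complex in mitosis, had 8.11 FPKM in PBS and 3.46 FPKM in α-DR3, a 2.35-fold lower mean and the lowest ratio of any member. *Ube2t*, the E2 of the Fanconi anemia DNA repair pathway, had 9.23 FPKM in PBS and 4.48 FPKM in α-DR3, a 2.06-fold lower mean. Both enzymes are known for roles in the cell cycle or in genome repair.

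**Figure D2:**
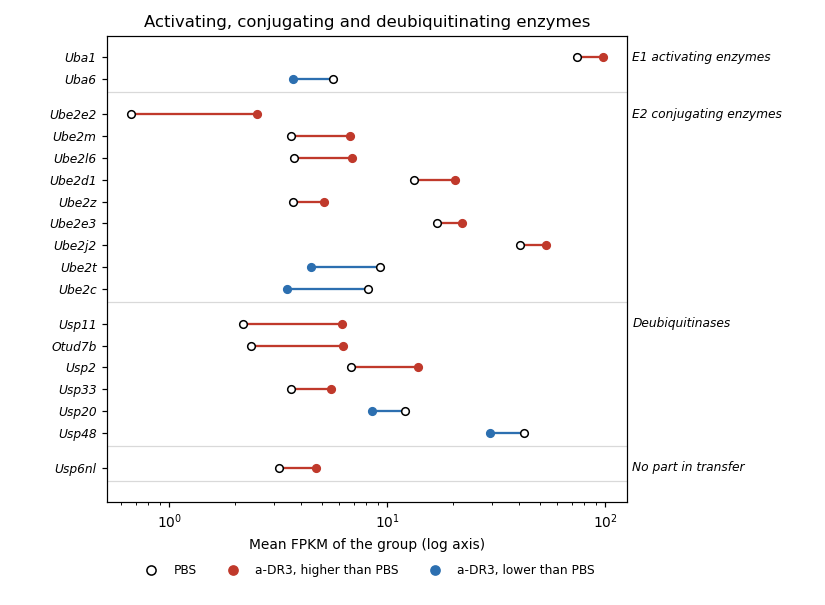
Mean FPKM in PBS (open circles) and α-DR3 (filled circles, red where higher and blue where lower) for *Uba1* and *Uba6*, E2 enzymes, deubiquitinases and *Usp6nl*, on a log axis. *Uba1* was the most abundant at 73.7 and 97.8 FPKM, and *Ube2e2* had the longest line, from 0.665 to 2.52 FPKM.

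All 6 deubiquitinases had a mean over 5 FPKM. Past the limits were 4 as higher, against 31.6% of listed genes over 5 FPKM, and none as lower, against 38.2%. With ratios divided by the median ratio of all listed genes, 3 were past the limits as higher and 2, *Usp48* and *Usp20*, as lower. *Usp11*, a protease linked to DNA repair, had 2.19 FPKM in PBS and 6.16 FPKM in α-DR3, a ratio of 2.82. *Otud7b* (ENSMUSG00000038495.8; chr3:96104527-96161129 of GRCm38 in GENCODE M21), also known as Cezanne, which removes ubiquitin from TRAF3 and restrains noncanonical NF-κB signaling, had 2.37 FPKM in PBS and 6.22 FPKM in α-DR3, a ratio of 2.62. *Usp2*, known as a component of the circadian clock, had 6.79 and 13.8 FPKM, a ratio of 2.03. *Usp33*, a protease of receptor trafficking, had 3.60 and 5.48 FPKM, a ratio of 1.52.

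The deubiquitinases most abundant in PBS were the lower ones. *Usp48* had 42.3 FPKM in PBS and 29.6 FPKM in α-DR3, and *Usp20* had 12.03 and 8.46 FPKM, which were 1.43-fold and 1.42-fold lower means. The summed mean of the 6 genes was 69.2 FPKM in PBS and 69.7 FPKM in α-DR3.

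The 14 single-protein ligases were split evenly, with 7 higher and 7 lower means. Past the limits of size were 11 of them (78.6%), against 52.4% of all listed genes. A mean over 5 FPKM was found for 12 of the 14, and 69.7% of listed genes at that level were past the limits. *Trim7* (ENSMUSG00000040350.8; chr11:48826140-48852209 of GRCm38 in GENCODE M21), a RING ligase of the tripartite motif family, had 2.16 FPKM in PBS and 7.07 FPKM in α-DR3, a ratio of 3.28. *Rnf145* (ENSMUSG00000019189.7; chr11:44518964-44565520 of GRCm38 in GENCODE M21), a ligase of the endoplasmic reticulum that takes part in the turnover of the sterol enzyme HMG-CoA reductase, had the highest mean of this class in α-DR3, with 21.7 FPKM in PBS and 44.9 FPKM in α-DR3, a ratio of 2.07. *Rnf19b*, known from natural killer cells as NKLAM, had 24.7 and 42.3 FPKM, a ratio of 1.72.

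*Rnf149* had 3.59 FPKM in PBS and 7.18 FPKM in α-DR3, a ratio of 2.001. *Rnf208* had 1.87 and 3.77 FPKM, both under the 5 FPKM limit. *Ube3a*, the founding HECT ligase, had 5.56 and 8.34 FPKM, a ratio that lay exactly at the limit of 1.5, and *Trim59*, with 17.9 and 25.7 FPKM, had a ratio of 1.44. Among members with a mean over 5 FPKM, the next inside the limit were *Fbxl17*, *Usp33* and *Uba6*, each at 1.52-fold, and the first outside it were *Trim59* and *Usp48*. *Usp6nl*, with a ratio of 1.48, was under 5 FPKM.

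*Rnf128* (ENSMUSG00000031438.5; chrX:139563316-139673145 of GRCm38 in GENCODE M21), the ligase GRAIL of T cell anergy, had 7.36 FPKM in PBS and 3.96 FPKM in α-DR3, a 1.86-fold lower mean. *Trim14*, which acts in antiviral signaling, had 23.9 and 12.9 FPKM, also 1.86-fold lower. *Trim5* and *Trim34a*, relatives of the antiviral restriction factor TRIM5α, had 5.21 and 3.175 FPKM and 7.14 and 4.58 FPKM. These were 1.64-fold and 1.56-fold lower means. Among the 5 Trim genes the 2 higher ones were therefore *Trim7* and *Trim59*.

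*Rnf39*, which lies in the MHC region of chromosome 17, had 6.45 FPKM in PBS and 3.08 FPKM in α-DR3, a 2.09-fold lower mean. *Rnf130*, a membrane-bound RING ligase, had 22.5 and 14.6 FPKM, a 1.54-fold lower mean. *Rnf144b*, a ligase of the RING-between-RING type, had the lowest level among the single-protein ligases, with 1.23 FPKM in PBS and 0.555 FPKM in α-DR3.

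**Figure D3:**
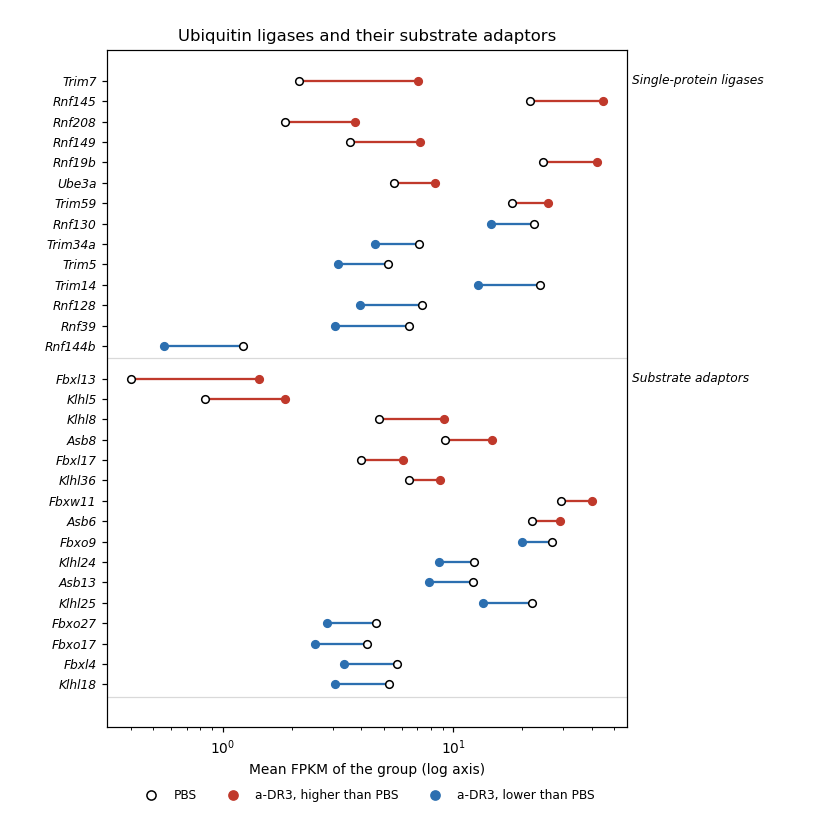
Mean FPKM in PBS (open circles) and α-DR3 (filled circles, red where higher and blue where lower) for 14 single-protein ligases and 16 substrate adaptors, on a log axis and sorted by ratio within each class. Each class had as many higher as lower genes (*Trim14* counted), and the largest ratio among genes over 20 FPKM in both groups was that of *Rnf145*, at 21.7 and 44.9 FPKM.

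Substrate adaptors of cullin ligases were also split, with 8 higher and 8 lower means. Past the limits of size were 7 of the 16 (43.8%), against 52.4% of all listed genes. A mean over 5 FPKM was found for 12 of the 16, and 69.7% of listed genes at that level were past the limits. Among F-box proteins, *Fbxw11*, the β-TrCP paralog that recognizes phosphorylated IκB and β-catenin, had 29.4 FPKM in PBS and 40.0 FPKM in α-DR3, a ratio of 1.36. *Fbxl17*, which acts in quality control of BTB proteins, had 3.99 and 6.07 FPKM, a ratio of 1.52. *Fbxl13* had a larger ratio of 3.59 but from 0.400 to 1.44 FPKM.

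The lower F-box genes were *Fbxl4*, a mitochondrial F-box protein, with 5.69 and 3.37 FPKM, *Fbxo9* with 26.9 and 19.9 FPKM, and the adjacent *Fbxo27* and *Fbxo17*. *Fbxo27*, a glycoprotein-binding member, had 4.64 and 2.84 FPKM, and *Fbxo17* had 4.23 and 2.51 FPKM. Only *Fbxl4* among these was past both limits, with a 1.69-fold lower mean.

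Kelch-BTB adaptors of CUL3 were higher for *Klhl8* (4.75 FPKM in PBS and 9.11 FPKM in α-DR3), *Klhl36* (6.45 and 8.81 FPKM) and *Klhl5* (0.840 and 1.86 FPKM). They were lower for *Klhl25*, which acts on the translation repressor 4E-BP1, with 21.9 FPKM in PBS and 13.5 FPKM in α-DR3. *Klhl18* had 5.29 and 3.07 FPKM and *Klhl24* had 12.4 and 8.72 FPKM, also lower. Past both limits were *Klhl8* (1.92-fold higher), *Klhl25* (1.63-fold lower) and *Klhl18* (1.73-fold lower).

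Of the 3 SOCS-box adaptors of the Asb family, *Asb8* had 9.27 FPKM in PBS and 14.8 FPKM in α-DR3, a ratio of 1.60. *Asb6* had 21.9 and 29.2 FPKM, a ratio of 1.33. *Asb13* had 12.2 and 7.85 FPKM, a 1.56-fold lower mean.

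Because DR3 signals through NF-κB and MAP kinases, promoter windows of the members were searched for an NF-κB motif and for the AP-1 motif TGANTCA, on both strands. The windows run from 250 bases before to 50 after a gene start in RefSeq on GRCm38.p6. Of the members, 41 had at least 1 window. The NF-κB motif was found for 1 of these (2.44%), against 5.14% of 27025 genes with a window, and the AP-1 motif for 3 (7.32%), against 8.97%. The member with the NF-κB motif was *Asb8*, and it held a match in both of its windows. The AP-1 motif was found in *Asb6*, *Fbxl4* and, in 1 of its 3 windows, *Uba1*. Neither share exceeded that of all genes. The windows of *Asb8* (minus strand, chr15:98165529-98165828 and chr15:98145653-98145952) and *Asb6* (minus strand, chr2:30828251-30828550) are shown because these adaptors are the 2 higher Asb genes and each holds a match, marked in capitals, 5′ to 3′ along the gene.
Asb8, distal start: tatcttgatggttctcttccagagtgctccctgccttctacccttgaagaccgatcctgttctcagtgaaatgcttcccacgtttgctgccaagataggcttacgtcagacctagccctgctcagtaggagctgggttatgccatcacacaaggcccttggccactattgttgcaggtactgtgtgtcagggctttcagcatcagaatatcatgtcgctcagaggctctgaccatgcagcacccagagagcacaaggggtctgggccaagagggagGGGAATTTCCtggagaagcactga
Asb8, proximal start: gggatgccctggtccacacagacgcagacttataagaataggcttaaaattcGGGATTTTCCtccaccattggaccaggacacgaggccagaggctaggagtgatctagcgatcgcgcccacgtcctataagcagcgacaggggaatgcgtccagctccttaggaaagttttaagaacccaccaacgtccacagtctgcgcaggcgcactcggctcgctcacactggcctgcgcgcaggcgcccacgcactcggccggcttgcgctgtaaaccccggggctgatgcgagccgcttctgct
Asb6: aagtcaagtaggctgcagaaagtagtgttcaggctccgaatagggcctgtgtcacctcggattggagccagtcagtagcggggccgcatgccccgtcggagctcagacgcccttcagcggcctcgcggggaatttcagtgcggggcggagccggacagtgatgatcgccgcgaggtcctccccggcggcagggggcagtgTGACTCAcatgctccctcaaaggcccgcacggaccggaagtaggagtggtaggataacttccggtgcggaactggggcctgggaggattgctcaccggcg
In *Asb8*, the match began 26 bases after the start in one window and 198 bases before it in the other. In *Asb6* the AP-1 match began 50 bases before the start. A match describes letters in the window, not a bound site.

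The members were spread over the genome, but 3 pairs lay within 100 kb of each other in GENCODE M21 on GRCm38, and both genes of each pair differed in the same direction. *Uba1* (chrX:20658326-20683179) and *Usp11* (chrX:20703906-20720539), an activating enzyme and a deubiquitinase, lay 20.7 kb apart with 1 protein-coding gene between them, and both were higher. *Fbxo27* (chr7:28692849-28699338) and *Fbxo17* (chr7:28716804-28738144) lay 17.5 kb apart and were both lower. *Trim34a* (chr7:104244457-104262234) and *Trim5* (chr7:104263386-104288094), on opposite strands, lay 1.15 kb apart and were both lower. The latter pairs are paralogs, and how RSEM divided reads between similar copies was not tested.

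Exons of 10 members share bases with those of another gene in GENCODE M21, and the protocol names no step that keeps the strand of the RNA. For 4 members a single other gene covers over 20% of the exon bases. *Trim14* shares 31.3% with *Nans* on the opposite strand, *Ube2c* 22.8% with *Tnnc2* on the opposite strand, *Trim34a* 23.5% with an antisense gene and *Rnf149* 24.9% with a noncoding transcript on its own strand. The values of these 4 members are therefore less certain.

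The pattern matches 434 names of protein-coding genes in GENCODE M21, of which the 49 listed genes are 11.3%. Matched by identifier, 9.71% of all 21951 protein-coding genes were listed, a share close to it. Of 37 Ube2 names 9 were listed, of 56 Usp names 6, of 85 Rnf names 8, of 77 Fbx names 7 and of 68 Trim names 5. None of the 36 names starting with Cul, Herc, Hect, Ubr, Nedd4, Peli or Cbl was listed. These counts include genes that ILC3s need not express. The 25 genes named in the sheet alone comprise 13 single-protein ligases and scaffolds (*Cul3*, *Rnf5*, *Rnf17*, *Rnf112*, *Rnf114*, *Rnf151*, *Rnf166*, *Rnf168*, *Rnf170*, *Rnf215*, *Trim25*, *Trim28* and *Trim37*) and 6 adaptors (*Fbxo7*, *Fbxo11*, *Fbxw5*, *Fbxw9*, *Klhl3* and *Klhl10*). The others are 3 E2 enzymes (among them *Ube2a* and *Ube2g2*) and 3 deubiquitinases (*Usp19*, *Usp32* and *Usp40*). They are not listed in the deposited table, which does not show that they stayed level.

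Other parts of the ubiquitin system were read from lists of genes outside the symbol pattern. Of 40 names starting with Psma, Psmb, Psmc or Psmd in GENCODE M21, which mark proteasome subunits, 6 were listed, all higher, with ratios from 1.27 to 1.62, and 1 of them was past the limits, against 54.6% of all listed genes higher and 23.7% past the limits as higher. Their median log2 ratio, 0.39, was close to that of all listed genes, and *Psmb9*, *Psmc5* and *Psmc2* turned to below 0 when ratios were divided by the median ratio. *Psma6*, a subunit of the outer ring of the core particle, had 66.7 FPKM in PBS and 108 FPKM in α-DR3, and *Psmb9*, an immunoproteasome subunit, had 29.9 and 38.8 FPKM. None of the 4 ubiquitin precursor genes was listed.

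Of 19 regulators of ubiquitin editing in NF-κB signaling, 6 were listed, 5 higher and 1 lower, against 54.6% of all listed genes higher. All 6 had a mean over 5 FPKM and were past the limits of size. The shares were 69.7% of listed genes over 5 FPKM and 52.4% of all listed genes. The list was chosen with earlier results of these data known, so these counts are a description only. With ratios divided by the median ratio, 3 were past the limits as higher and 1 as lower. *Tnip3*, a binding partner of the ubiquitin-editing enzyme A20, had 0.990 FPKM in PBS and 13.8 FPKM in α-DR3. Its relative *Tnip1* had 111 and 226 FPKM, a ratio of 2.03, and *Traf3*, the substrate of Otud7b named above, had 12.9 and 30.6 FPKM, a ratio of 2.37. *Birc2*, which encodes the ligase cIAP1, was higher at 70.3 and 111 FPKM, whereas *Birc3*, which encodes its paralog cIAP2, was lower at 255 and 160.0 FPKM. The genes of these paralogous ligases thus differed in opposite directions.

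Among other ligases and adaptors, 9 were listed, of which 7 were higher and 2 lower, against 54.6% of all listed genes higher. Past the limits as higher were 5 of the 9, against 23.7% of all listed genes, and 0 of them with ratios divided by the median ratio. Of 8 genes of SOCS-box proteins of the cytokine-induced SOCS family, 4 were listed, all higher and 3 of them past the limits, with *Cish* at 77.7 FPKM in PBS and 144 FPKM in α-DR3, *Socs1* at 63.1 and 115 FPKM and *Socs3* at 277 and 432 FPKM. *March8*, a membrane-bound ligase that acts on MHC class II, was lower at 3.91 and 2.34 FPKM, under the 5 FPKM limit. Of 17 other deubiquitinases 2 were listed, both higher, *Zranb1* at 4.76 and 7.21 FPKM and *Yod1* at 5.51 and 7.56 FPKM. Of 25 genes of related modifiers 5 were listed, 2 higher and 3 lower, and none was past the limits, against 52.4% of all listed genes. With ratios divided by the median ratio, 2 of the 5 were past the limits as lower.

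**Figure D4:**
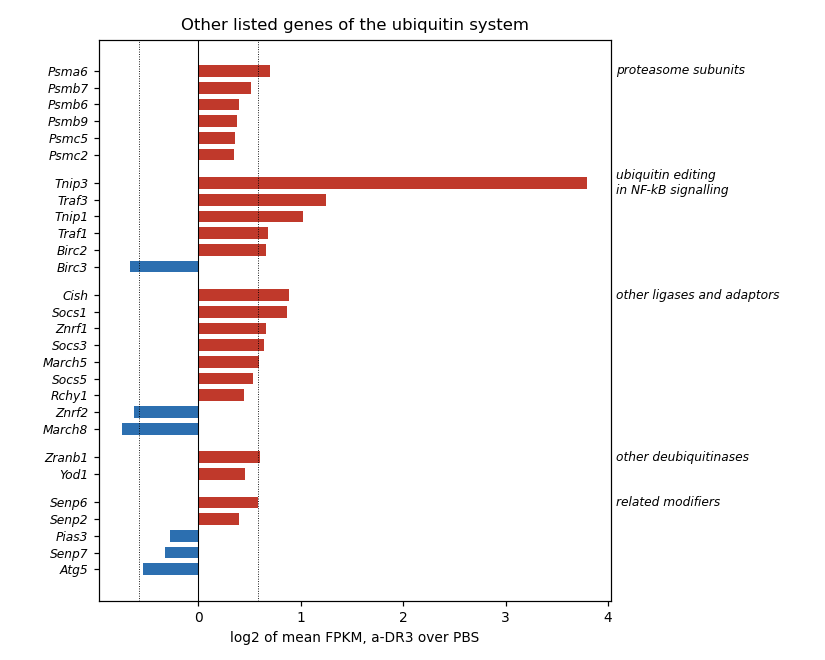
The log2 ratio of the group means, α-DR3 over PBS, for the other listed genes of the ubiquitin system, grouped by list, with dotted lines at a 1.5-fold difference. All 6 proteasome subunits lay above 0, though 3 fell below it with ratios divided by the median ratio of all listed genes, and *Birc3* lay below 0 in a list whose other 5 genes lay above it.

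Markers of cell identity also differed between the groups. For comparison with the counts below, 54.6% of all listed genes were higher, and 23.7% were past the limits as higher. Of 14 ILC3 markers 7 were listed, 5 higher and 2 lower. Past the limits as higher were 4 of the 7, and 2 with ratios divided by the median ratio. *Thy1* had 163 FPKM in PBS and 268 FPKM in α-DR3, *Ncr1* had 460.2 and 279 FPKM and *Il22* had 17424 and 44537 FPKM. All 7 listed of 13 macrophage and monocyte markers were higher in α-DR3, with a summed mean of 9.58 FPKM in PBS and 62.0 FPKM in α-DR3, and 6, among them *Csf1r* and *Adgre1*, were not listed. Of 9 dendritic cell markers 4 were listed, all higher, whereas *Itgax*, *Flt3*, *Xcr1*, *Clec9a* and *Cd209a* were not listed. Past the limits as higher were 3 of the 4, and 1 with ratios divided by the median ratio. The summed means of the 4 were 76.5 FPKM in PBS and 166 FPKM in α-DR3. *Batf3* and *Zbtb46* made up 74.1 and 128 FPKM of these sums, and *Ccl17* and *Ccl22* 2.35 and 38.6 FPKM. All 5 listed of 6 fibroblast markers were higher, with sums of 6.58 and 16.6 FPKM, and so was 1 of 4 B cell markers, *Cd79b*, with 10.9 and 27.2 FPKM. None of 5 T cell and 6 epithelial markers was listed. The paper gives CD3, B220, CD11b and CD11c as its lineage markers, and the cells were sorted as negative for Lin and positive for GFP. Whether other cell types contributed to these marker values or to those of the ubiquitin genes was not tested.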

How the data were processed

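ILC3s from large intestinal LPLs were profiled by RNA-seq in 2 PBS and 2 α-DR3 libraries. According to the methods and the submitters' processing notes, the authors mapped paired-end reads to GRCm38.p5 with STAR 2.5, ran RSEM 1.2 with GENCODE M16 for quantification, and used edgeR 3.18.1 for differential expression. The deposited FPKM values are group means that the authors took over duplicates, not rescaled between libraries, and the deposited log2 mean CPM is that over all 4 libraries. The column of PBS means is headed as wild type and was assigned to PBS, the only other group. The log2 fold changes, likelihood ratios, p-values and FDR that the authors deposited belong to their own comparison and were not used. Depth per library and counting error are not given in the deposited table, and no intervals are given. The larger mean was at least 1.005 FPKM in every row.

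Members were matched by symbol, after 5 symbols turned into dates were restored from identifiers with GENCODE M21, which held 2149 of the 2179 identifiers and all 49 members. The members and the gene lists were chosen with earlier results of these data known. Members are named except for some genes that are not reported here but enter the counts, and other genes come from fixed lists. Ratios of means were counted past 1.5-fold with a mean over 5 FPKM in either group, and a ratio equal to the limit was counted. A limma test was planned only for the case of single libraries. It was not run because the deposited table, the only source of values used here, holds none. Protein features were not analysed here. Counting and motif search were tested on simulated data. Alternatives were other FPKM and fold limits, pseudocounts of 0.1, 1 and 5, scaling to the median ratio, leaving out *Usp6nl* and, chosen after seeing the data, leaving out *Trim14* or counting only ratios over 1.5. Python 3.11.15, numpy 2.4.6, pandas 2.3.3 and matplotlib 3.10.9 were used.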

Additional observations from a re-analysis of the deposited data

How the results depend on the processing

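No paired analysis was possible because the deposited table, the only source of values used here, holds no column for a single library, and for the same reason no library was left out. Single-library values in the paper's supplement were not used here. A pseudocount is added to both means and so cannot change the direction of a member. With scaling to the median ratio the 49 members remained 29 higher and 20 lower. The smallest log2 ratio of a higher member was 0.389 and the shift was 0.385, so no member could turn. The counts past the limits, 16 higher and 13 lower, came to 20 and 16 with no FPKM limit beyond 1, to 15 and 13 with a pseudocount of 0.1 and to 12 and 9 with a pseudocount of 1. They came to 6 and 4 with a mean over 10 FPKM, to 6 and 3 with a 2-fold limit, to 7 and 3 with a pseudocount of 5, and to 7 and 17 with ratios divided by the median ratio of all listed genes. A mean over 10 FPKM left 12 higher and 8 lower members of any size, through fewer genes. The median log2 ratio of the members, 0.44, was 0.44, 0.40 and 0.27 with pseudocounts of 0.1, 1 and 5, 0.059 after scaling to the median ratio and 0.43 without *Usp6nl*. Chosen after seeing the data, counting only ratios over 1.5 gave 15 higher and 13 lower, and leaving out *Trim14* gave 16 and 12, with a median of 0.45. Depth and the spread between replicates are not given here, so no precision is stated for any single ratio.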

Other observations

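Outside the symbol pattern and the lists, 6 other listed genes had symbols starting with Ub, 3 higher and 3 lower, and they were chosen after their values were seen. *Ubd*, which encodes the ubiquitin-like modifier FAT10, had a mean of 0.035 FPKM in PBS and 4.47 FPKM in α-DR3. FAT10 is charged by Uba6 and passed to Ube2z, whose genes were lower and higher, respectively. With a PBS mean this close to 0, no fold is given. The ubiquilins *Ubqln1* and *Ubqln2*, which shuttle ubiquitinated proteins to the proteasome, were higher at 19.2 and 28.6 FPKM and at 2.35 and 3.34 FPKM. The lower genes were *Ubac2*, with 82.2 FPKM in PBS and 53.5 FPKM in α-DR3, *Ublcp1*, with 15.2 and 8.12 FPKM, and *Ubxn2b*, with 1.10 and 0.590 FPKM.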
